A study of Mus musculus with 6 samples.

Results

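The 9 genes described here encode proteins of platelets and of megakaryocytes, the marrow cells that release platelets, together with partners that these proteins bind on leukocytes. They are Thbs1, Selp, Selplg, F2r, Pf4, Ppbp, Itga2b, Gp9 and Gp1bb, taken by symbol from the annotation of the array, where they have 14 probe sets (groups of short probes that read 1 transcript). A table with 1 probe set per gene, the brightest, held 18194 genes, of which these are 9. Their levels were compared between mouse leukemias of 2 genotypes. All leukemias were driven by MLL-ENL, a fusion of a histone methyltransferase with a transcription elongation factor, which was put into bone marrow cells by transduction before transplantation into congenic mice. The marrow was either Runx1-intact (labelled Control) or Runx1-excised (labelled Runx1-KO), the strain was C57BL/6, and leukemic cells were taken from moribund recipients. Each group held 3 arrays from independent leukemias. The labels used here give no sorting step, no age and no Cre driver, so cells of the host can have been present in the RNA.

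Platelets form when a megakaryocyte extends its cytoplasm into a marrow sinus and sheds fragments of it. At a wound, the GPIb-IX-V complex catches von Willebrand factor, thrombin cleaves protease-activated receptors, the integrin αIIbβ3 binds fibrinogen, and granules release chemokines, thrombospondin and P-selectin. P-selectin then tethers leukocytes through its ligand PSGL-1. RUNX1 is a transcription factor needed for megakaryocyte maturation, and inherited loss of one copy in people causes a platelet disorder with a risk of leukemia. It acts there with GATA and ETS factors.

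Promoters are shown for 4 genes that cover some of the patterns described below. Selp and F2r had groups that did not overlap, Pf4 differed less, and Gp9 was nearly level. The sequences are those of RefSeq on GRCm38.p6, from 250 bases before to 50 bases after the gene start, on the strand of the gene. The promoter table held 7 of the 9 genes and lacked Thbs1 and Selplg, so the separated gene that was lower is not shown. Capitals mark exact matches on either strand to 6 words, TGTGGT and TGCGGT for RUNX factors, AGATAA and TGATAA for GATA factors, CCGGAA and AGGAAG for ETS factors.
Selp, chr1:164115014-164115313, plus strand: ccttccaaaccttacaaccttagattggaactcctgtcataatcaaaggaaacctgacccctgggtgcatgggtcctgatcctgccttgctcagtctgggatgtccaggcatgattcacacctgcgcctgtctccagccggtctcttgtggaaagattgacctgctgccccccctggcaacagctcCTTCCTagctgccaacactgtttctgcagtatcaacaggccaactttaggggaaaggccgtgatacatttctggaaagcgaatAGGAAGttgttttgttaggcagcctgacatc
F2r, chr13:95618417-95618716, minus strand: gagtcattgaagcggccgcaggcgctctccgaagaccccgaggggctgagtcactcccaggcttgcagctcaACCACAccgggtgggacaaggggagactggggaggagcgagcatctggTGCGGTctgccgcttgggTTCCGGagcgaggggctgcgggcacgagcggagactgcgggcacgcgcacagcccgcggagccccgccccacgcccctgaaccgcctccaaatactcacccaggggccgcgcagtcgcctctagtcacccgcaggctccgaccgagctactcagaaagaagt
Pf4, chr5:90772185-90772484, plus strand: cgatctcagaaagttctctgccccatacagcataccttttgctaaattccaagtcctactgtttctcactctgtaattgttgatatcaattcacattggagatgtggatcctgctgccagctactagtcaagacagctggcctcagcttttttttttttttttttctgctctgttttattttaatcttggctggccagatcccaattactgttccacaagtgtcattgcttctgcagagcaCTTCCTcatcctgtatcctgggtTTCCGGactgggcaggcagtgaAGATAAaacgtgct
Gp9, chr6:87777820-87778119, plus strand: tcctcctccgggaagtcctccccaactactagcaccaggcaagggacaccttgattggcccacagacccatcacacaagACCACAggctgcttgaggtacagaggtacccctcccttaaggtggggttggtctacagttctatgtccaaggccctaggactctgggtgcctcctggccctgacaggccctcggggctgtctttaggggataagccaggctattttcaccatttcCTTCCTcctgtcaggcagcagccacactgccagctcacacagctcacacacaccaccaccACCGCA

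A RUNX word stood in 2 of the 7 promoters, those of F2r and Gp9, with 2 matches each. Of all 32851 promoters of this length in the table, 22.4% held one. An ETS word stood in 6 of the 7, all but Ppbp, against 45.2% of all promoters. A GATA word stood in 1, that of Pf4, against 18.6%. In F2r the RUNX words began 178 and 130 bases before the start, and in Gp9 171 bases before and 44 bases after it. The Pf4 promoter had its ETS words 9 bases before and 14 bases after the start and its GATA word 36 bases after it. No 2 of the marked words overlapped in these 4 promoters. A match describes letters in a window and is not a binding site.

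A background limit was taken on each array as its brightest value among 27 control probe sets for bacterial transcripts, which were dim on every array. It ran from 14.1 to 22.5 intensity units over the 6 arrays, and 57.4% to 64.7% of genes lay above it. Runx1 stood at 1128, 1573 and 1630 in Runx1-KO-labelled arrays and at 680.3, 1021 and 850.0 in Control, so the targeted gene did not check the labels, and where its probe set lies relative to the excised part is not stated in the labels. The Y-linked gene Eif2s3y stood at 3.98 to 6.31 in Runx1-KO-labelled arrays and at 638.0 to 706.7 in Control, so sex and genotype cannot be told apart. Xist, a transcript of female cells, stood at 1624, 1857 and 1895 in Runx1-KO-labelled arrays. In Control 1, 2 and 3 it stood at 330.8, 85.4 and 25.3, each above its limit, and the source of that signal was not tested. Gapdh signal at the 3' end over that at the 5' end, a ratio that rises as RNA degrades, stood at 7.10 in Runx1-KO 1 and 2.67 to 3.02 in the other 5 arrays. The summed level of 6 erythroid markers was 4157 in Control 1 and 54.7 to 176.8 elsewhere.

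Of the 9 genes, 7 had a higher and 2 a lower mean level in Runx1-KO-labelled arrays, where 49.2% of all genes were higher, and 0 passed the test over all genes (limma, Benjamini-Hochberg adjusted p under 0.05). Among all genes 0.033% of genes passed as higher and 0.055% as lower. At an unadjusted limma p under 0.05 there were 4 higher (Thbs1, Selp, F2r and Itga2b) and 1 lower (Selplg), against 5.62% and 7.01% of all genes. The 3 arrays of one group lay wholly above those of the other for Thbs1, Selp and F2r, and wholly below for Selplg. Such separation upward was seen in 9.17% of all genes and downward in 11.7%. The median log2 difference of the 9 was 1.20 against -0.01 over all genes, but the 9 were put together with results of these arrays known, so their counts are a description. In bulk RNA, fewer cells of a type and less RNA per cell cannot be told apart. An exact two-sided permutation test of 3 arrays against 3 cannot give a p below 0.1, the value that each of the 4 separated genes reached.

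**Figure D1:**
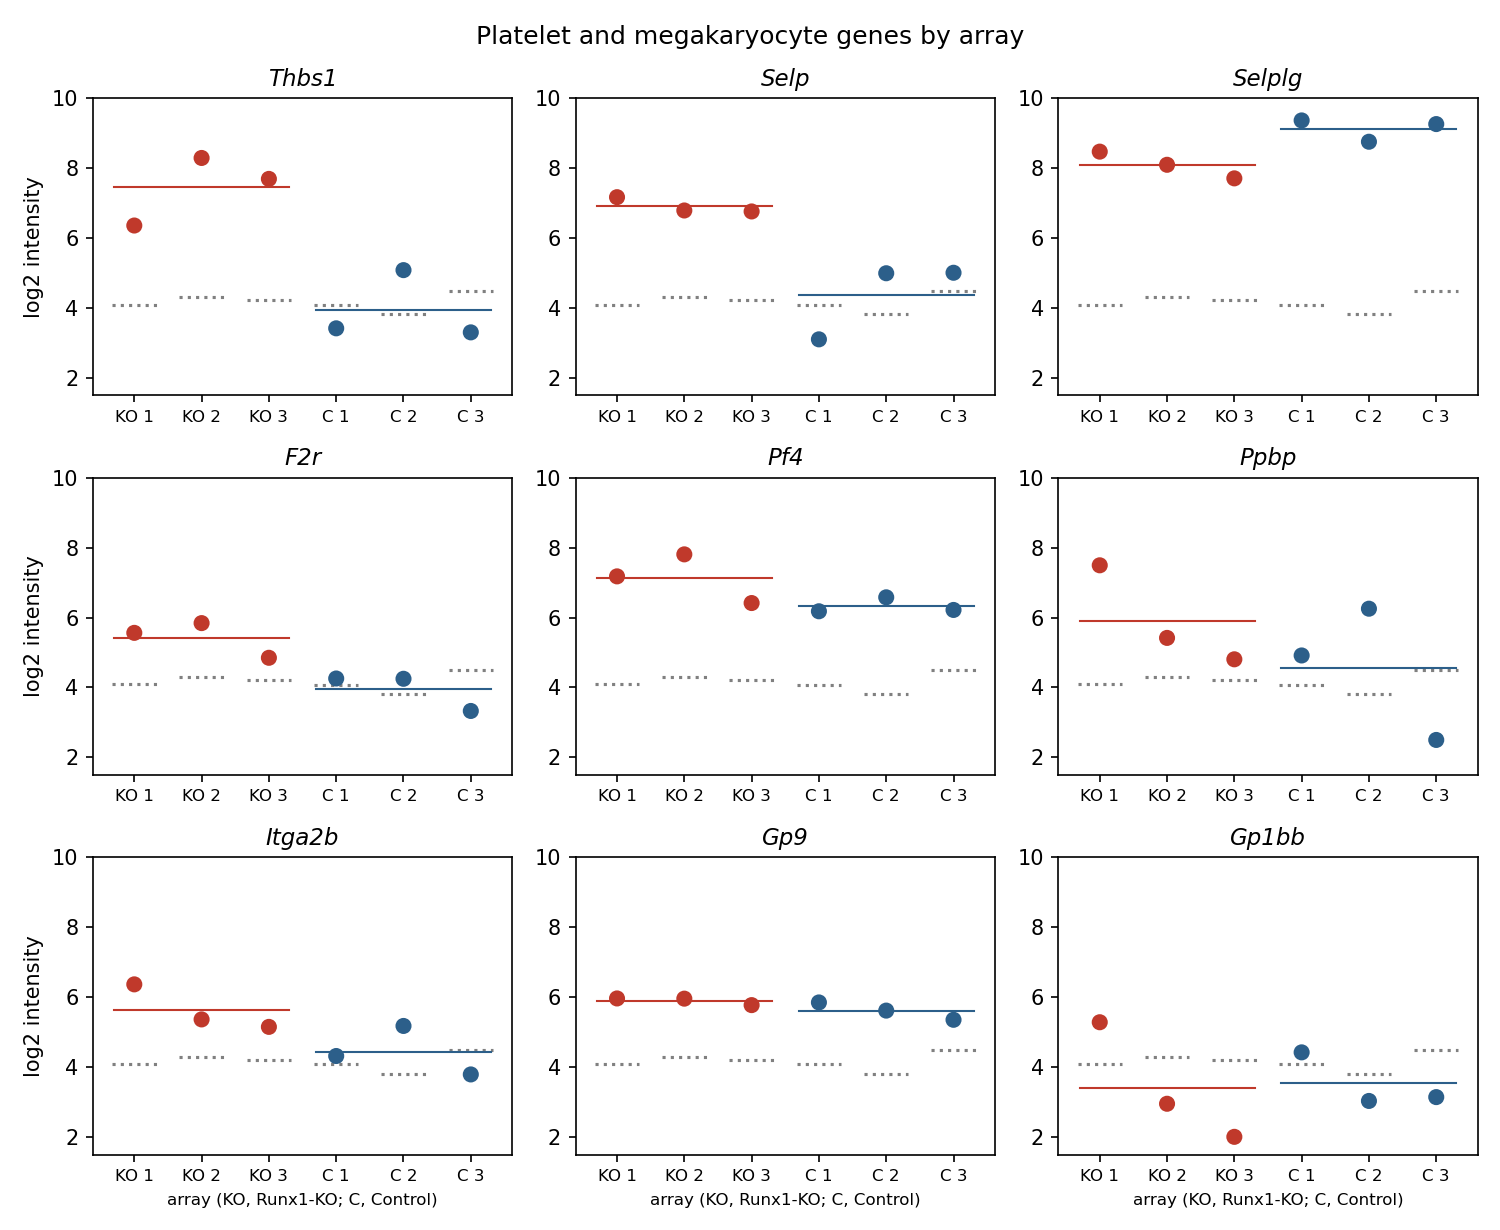
Log2 intensity of the 9 genes (vertical axis) on each of the 6 arrays (horizontal axis, KO for Runx1-KO and C for Control), with the group mean as a line and the background limit of each array as a dotted line. Thbs1, Selp and F2r are higher on all 3 Runx1-KO-labelled arrays, Selplg is lower there, and the arrays of the other 5 genes overlap.

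Thbs1 encodes thrombospondin 1, a matrix glycoprotein that platelets store in their granules and that macrophages and endothelium also make. It stood at 81.7, 311.9 and 205.9 in Runx1-KO 1, 2 and 3 and at 10.6, 33.7 and 9.82 in Control 1, 2 and 3. All 3 values labelled Runx1-KO lay above all 3 of Control, and only Control 2 was above its background limit. The fitted log2 difference was 3.51 ± 0.67 (SE, n = 3 per group, 95% interval 1.90 to 5.13), and the level was at least 7.42-fold higher with dim Control arrays raised to their limits. The limma adjusted p was 0.179, and from 0.0546 to 0.414 over the alternatives. The second probe set gave 72.3, 177.7 and 183.7 against 7.17, 29.4 and 7.23, with a log2 difference of 3.53. The probe sets thus gave nearly the same difference, and both showed Control 2 as the highest Control array.

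Thrombospondin has several relatives and receptors, of which 10 were measured and 0 passed in either direction, with 5 higher and 5 lower and a median log2 difference of -0.02. Lrp1, a scavenger receptor that clears thrombospondin, had the lowest p (log2 difference 1.61 ± 0.70, adjusted p = 0.412) and its groups overlapped. It was 1.04 without Runx1-KO 2 and 2.52 without both arrays numbered 1. Thbs4 was above the limit in all 3 Runx1-KO-labelled arrays, at 21.2, 23.4 and 25.2, and in 0 of 3 Control arrays, at 13.3, 5.81 and 21.1 (at least 1.32-fold higher, limma adjusted p = 0.441). Its fitted log2 difference of 0.98 was 0.47 without Control 2 and 0.45 with an offset of 16 before the log. Cd47, the receptor that gives phagocytes a signal not to eat a cell, ranged from 3089 to 3330 in Runx1-KO-labelled arrays and from 3149 to 3585 in Control. Cd36, a thrombospondin and fatty acid receptor, was below the limit in all Runx1-KO-labelled arrays, at 10.9, 10.1 and 15.2. In Control it stood at 202.0, 23.4 and 17.2, highest in Control 1, the array with the high erythroid sum. The groups did not overlap (limma adjusted p = 0.455), but the nearest arrays, Runx1-KO 3 and Control 3, were both below their limits.

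Selp encodes P-selectin, which sits in the granules of platelets and endothelial cells and reaches the surface on activation. It stood at 143.3, 110.1 and 108.0 in Runx1-KO-labelled arrays and at 8.55, 31.7 and 32.0 in Control. The Runx1-KO-labelled arrays lay within 1.33-fold of each other, whereas Control spread over 3.74-fold, with Control 1 below its limit. The fitted log2 difference was 2.54 ± 0.54 (SE, n = 3 per group, 95% interval 1.23 to 3.85), which is at least 4.63-fold, and the limma adjusted p was 0.200. It was 1.91 without Control 1, and 1.77 without both arrays numbered 1. The other probe sets of Selp gave smaller differences, 1.54 and 1.0002 on the log2 scale, and in each of them the groups did not overlap. On the probe set with the log2 difference of 1.54, levels were 63.2, 49.6 and 62.8 against 19.3, 21.5 and 19.2. Its adjusted p over all probe sets was 0.103, the lowest of the 14.

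Selp lies in the RefSeq table between the gene of L-selectin and F5, coagulation factor V, a plasma and platelet granule protein. F5 overlapped between the groups, at 323.7, 302.3 and 260.2 against 281.4, 173.0 and 349.5. Sele, which encodes E-selectin of endothelium and lies in the same cluster, also overlapped, at 43.1, 26.4 and 25.8 against 39.9, 44.8 and 74.1. The neighbours measured here therefore did not show the separation seen for Selp.

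Selplg encodes PSGL-1, the mucin on leukocytes that P-selectin binds, and it differed in the opposite direction. It stood at 353.5, 272.4 and 208.1 in Runx1-KO-labelled arrays and at 656.4, 430.2 and 610.6 in Control. Every array was far above background and the groups did not overlap. The level was 2.05-fold lower, or -1.03 on the log2 scale ± 0.28 (SE, n = 3 per group, 95% interval -1.72 to -0.35), with a limma adjusted p of 0.264. Under every alternative run it stayed negative, between -1.29 and -0.84.

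PSGL-1 binds selectins only once it carries sialylated and fucosylated glycans and sulfated tyrosines. Among 13 measured genes of selectins and of ligand synthesis, 6 were higher and 7 lower, 0 passed in either direction and the median log2 difference was -0.08. The lowest p values belonged to St3gal3, a sialyltransferase, and Fut7, the fucosyltransferase that finishes the selectin-binding glycan in leukocytes. Fut7 had geometric mean levels of 32.8 in Runx1-KO-labelled arrays and 60.5 in Control, a log2 difference of -0.88 ± 0.31 (adjusted p = 0.339). St3gal3 had 75.1 and 148.2, a log2 difference of -0.98 ± 0.25 (adjusted p = 0.251), but -0.31 as the mean of all its probe sets. On the brightest probe set of each gene all 3 Runx1-KO-labelled arrays lay below all 3 of Control. The core 2 enzyme gene Gcnt1 overlapped, at 192.3, 700.6 and 240.1 against 367.6, 165.6 and 192.8, and so did the tyrosine sulfation gene Tpst2, at 196.9, 325.8 and 146.8 against 204.7, 150.8 and 176.9.

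F2r encodes the first protease-activated receptor, which thrombin switches on by cutting its outer end. Human platelets carry it, whereas mouse platelets respond to thrombin through the receptors encoded by F2rl2 and F2rl3. It stood at 47.2, 57.3 and 28.8 in Runx1-KO-labelled arrays and at 19.1, 19.0 and 10.04 in Control, with Control 3 below its limit. The groups did not overlap. The fitted log2 difference was 1.47 ± 0.38 (SE, n = 3 per group, 95% interval 0.56 to 2.39), at least 2.12-fold, and the limma adjusted p was 0.247. With an offset of 16 before the log it was 0.90. A dimmer probe set of F2r gave 11.3, 35.5 and 8.52 against 6.54, 6.02 and 5.68. Only Runx1-KO 2 was above its limit there, so no fold was stated.

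The receptors that mouse platelets use did not show that separation. F2rl2 stood at 41.6, 66.8 and 31.0 against 13.6, 38.8 and 34.8, and the groups overlapped. F2rl3 was below the limit on all 6 arrays, as was P2ry12, the platelet receptor for ADP that clopidogrel blocks. Among 16 measured agonist receptors and activation signalling genes, 11 were higher and 5 lower, 0 passed, and the median log2 difference was 0.06. Btk, a kinase below the collagen receptor that myeloid and B cells also use, had the lowest p (1.63-fold lower, log2 difference -0.71 ± 0.19, adjusted p = 0.258) and its groups did not overlap. Ptgir, the prostacyclin receptor, had the next (log2 difference 0.98 ± 0.49, adjusted p = 0.464), at 0.57 without Runx1-KO 2 and 1.69 without both arrays numbered 1. The groups of Tbxa2r, the thromboxane receptor, did not overlap (at least 1.22-fold higher, adjusted p = 0.518), nor did those of Tln1, the integrin activator talin (1.19-fold lower, adjusted p = 0.575). The log2 difference of Tbxa2r, 0.51, was 0.20 without Control 3 and 0.30 with the offset of 16.

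**Figure D2:**
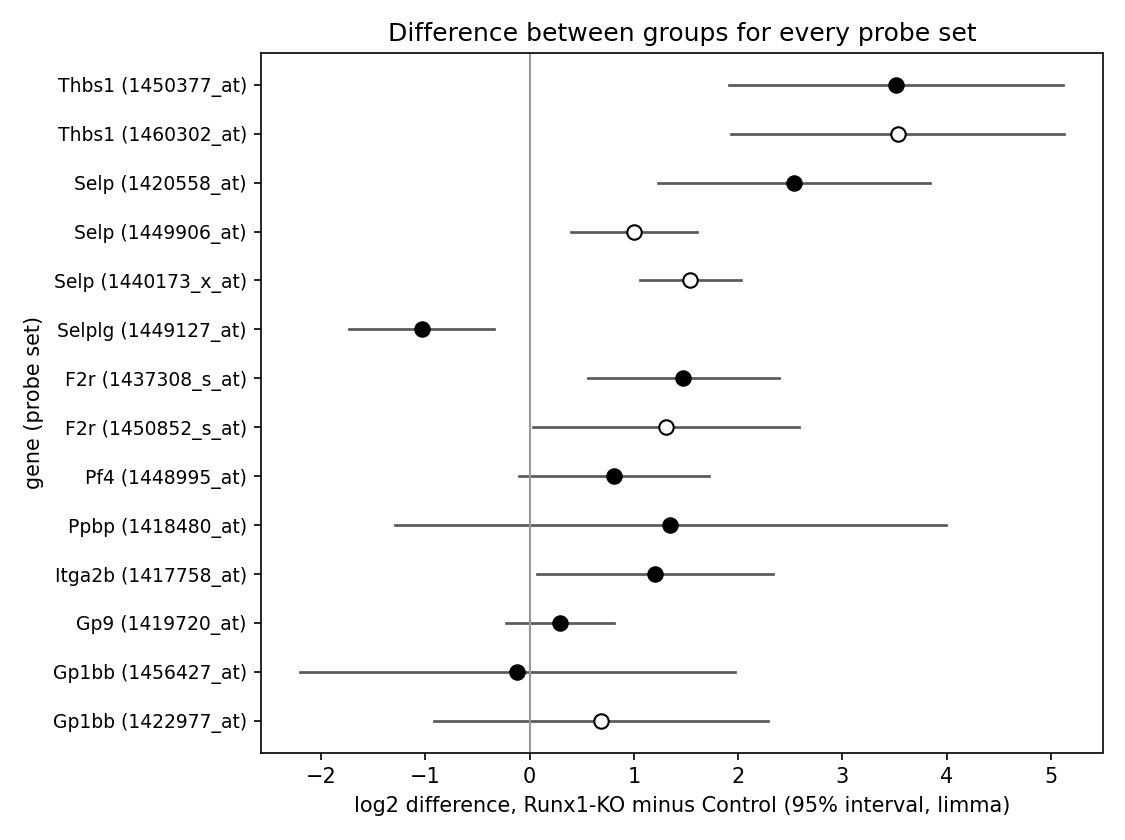
Log2 difference (Runx1-KO minus Control, horizontal axis) with its 95% limma interval for each of the 14 probe sets (vertical axis), filled where the probe set stands for its gene and open otherwise. The intervals of Thbs1, Selp, Selplg, F2r and Itga2b leave out 0 on each probe set, the probe sets of Gp1bb fall on both sides of 0, and none passed the adjusted test.

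Over the 14 probe sets, 12 were higher and 2 lower, where 48.5% of all probe sets with 1 symbol were higher. Of the 14, 0 passed (limma, adjusted over all probe sets), where 0.0343% of all passed as higher and 0.0515% as lower. At an unadjusted p under 0.05 there were 8 higher and 1 lower, where 5.3% and 7.03% of all were called. The groups did not overlap in 7 upward and 1 downward, where the shares over all probe sets were 8.64% and 11.8%. Probe sets of 1 gene read the same RNA and are not separate evidence. A further 2 probe sets carry the symbol of Thbs1 or Gp1bb together with that of another gene and were not used. Both were brighter than those used and above the limit on every array. The one shared by Thbs1 and Pald1 stood at 521.4, 1090 and 976.7 against 40.6, 150.6 and 44.3. The one shared by Gp1bb and Septin5 overlapped, at 164.3, 123.0 and 94.7 against 86.8, 29.4 and 106.5. Which of the genes gave these signals was not tested.

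Pf4 and Ppbp encode the chemokines that fill platelet α granules, platelet factor 4 and the precursor of NAP-2, and they are neighbours in the RefSeq table. Pf4 stood at 144.8, 224.0 and 85.3 in Runx1-KO-labelled arrays and at 72.5, 95.6 and 74.4 in Control. Runx1-KO 3 lay below Control 2, so the groups overlapped. Its log2 difference was 0.81 ± 0.37 (SE, n = 3 per group, 95% interval -0.10 to 1.71), or 1.75-fold, with a limma adjusted p of 0.431. It was 0.47 without Runx1-KO 2 and 0.38 with array weights. Ppbp stood at 180.3, 42.7 and 27.96 against 30.2, 76.3 and 5.65. The spread within each group exceeded the difference, 6.45-fold between the highest and lowest Runx1-KO-labelled array and 13.5-fold within Control. Its log2 difference of 1.35 ± 1.11 (95% interval -1.33 to 4.03, adjusted p = 0.649) was 0.56 without Runx1-KO 1, 0.74 without both arrays numbered 1, 0.32 without Control 3, 2.20 without Control 2 and 0.82 with the offset of 16.

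The 2 neighbours did not share an order of arrays, since Pf4 was highest in Runx1-KO 2 and Ppbp in Runx1-KO 1. Around them lie Cxcl5, Cxcl3, Cxcl15 and Cxcl1, chemokines that draw neutrophils. Of the 5 measured chemokine genes of this cluster, with Cxcl2, 3 were higher and 2 lower and 0 passed (median log2 difference 0.06). Cxcl1 stood at 33.9, 28.4 and 36.4 against 15.2, 16.5 and 16.03 (at least 1.77-fold higher, limma adjusted p = 0.154), and its groups did not overlap. Its fitted log2 difference of 1.04 was 0.61 with the offset. Cxcl2 followed another order, at 1020, 98.4 and 151.9 against 3547, 306.7 and 140.3, and was highest in both arrays numbered 1 and in Control 2. Cxcl5, with the second lowest p of the cluster, and Cxcl15 were below the limit on all arrays.

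Itga2b encodes the αIIb chain (CD41) of the fibrinogen receptor, which early blood progenitors also carry. It stood at 82.7, 41.3 and 35.6 in Runx1-KO-labelled arrays and at 19.97, 36.2 and 13.9 in Control, where Control 3 was below its limit. Runx1-KO 3 lay just below Control 2, so the groups overlapped by these 2 arrays. The log2 difference was 1.20 ± 0.47 (SE, n = 3 per group, 95% interval 0.06 to 2.34), at least 1.95-fold, and the limma adjusted p was 0.374. It was 0.79 with the offset of 16 and 0.77 without both arrays numbered 1. Itgb3, the β3 chain that pairs with αIIb, overlapped fully, at 523.6, 394.0 and 276.6 against 237.6, 380.6 and 479.2. β3 also pairs with αv on macrophages and other cells.

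Gp9 and Gp1bb encode 2 chains of the von Willebrand factor receptor. Gp9 was nearly level, at 62.5, 62.3 and 54.8 against 57.8, 49.1 and 41.0, and was above the limit on all 6 arrays. Its log2 difference was 0.29 ± 0.20 (SE, n = 3 per group), and the 95% interval of -0.20 to 0.79 left out a difference of 1 (2-fold). The limma adjusted p was 0.589. Without Control 3 the difference was 0.17. Gp1bb stood at 39.0, 7.75 and 4.02 against 21.5, 8.19 and 8.84, above the limit only in Runx1-KO 1 and Control 1. Its second probe set was above the limit only in Runx1-KO 1, at 35.6 against 6.01 to 8.52 elsewhere. The log2 differences of the 2 probe sets were -0.12 and 0.68, of opposite sign. No fold was stated for Gp1bb, whose difference ran from -1.05 without Runx1-KO 1 to 0.59 without Runx1-KO 3. Gp5, the remaining measured chain of that complex, was below the limit on all arrays, and Gp1ba was not analysed here.

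Among 10 measured platelet adhesion receptors outside the 9 genes, 4 were higher and 6 lower, 0 passed, and the median log2 difference was -0.51. Gp6, the collagen receptor, had the lowest p of them but was below the limit on all arrays. Fcer1g, the signalling chain that Gp6 shares with Fc receptors of myeloid cells, was 1.40-fold lower (log2 difference -0.49 ± 0.18, adjusted p = 0.351) without overlap. Clec1b, the podoplanin receptor, lay near background in both groups, with 2 of 3 arrays above the limit in each.

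Granule cargo and secretion genes had a median log2 difference of 0.19, with 10 of 14 higher, 4 lower and 0 past the test. Mmrn1, a factor V carrier of platelets, had the lowest p and was below the limit on all arrays. Tgfb1, the growth factor that platelets release in bulk and that thrombospondin 1 can activate, stood at 267.3, 312.2 and 181.2 against 114.6, 137.6 and 172.4 (1.77-fold, log2 difference 0.83 ± 0.28, adjusted p = 0.334). That value rests on its brightest probe set, and it was 0.24 as the mean of all its probe sets and 0.50 with array weights. Vwf, von Willebrand factor, stood at 49.2, 31.7 and 24.6 against 23.9, 19.2 and 23.7 (1.52-fold, log2 difference 0.61, adjusted p = 0.446). Without Runx1-KO 1 that difference was 0.34, with the offset 0.39 and with array weights 0.31. In Tgfb1 and Vwf the groups did not overlap, by a narrow margin between Runx1-KO 3 and the highest Control array. F13a1, the clot cross-linking factor that monocytes also make, overlapped at 2760 to 3988 against 2960 to 3470.

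Regulators of megakaryocytes were mixed. Of 13 measured regulators and cytoskeletal genes, 7 were higher and 6 lower, 0 passed, 0 separated the groups, and the median log2 difference was 0.11. Ets1, an ETS factor of lymphoid and megakaryocytic cells, had the lowest p (2.50-fold lower, log2 difference -1.32 ± 0.63, adjusted p = 0.441), at -0.88 without Control 2. Tubb1, the tubulin of platelet rims, followed (1.304-fold higher, log2 difference 0.38, adjusted p = 0.564), at 0.21 without Runx1-KO 1, 0.23 without Control 1 and 0.063 without both arrays numbered 1. Gata1, the factor that megakaryocytes and red cells require, stood at 149.4 in Control 1 and at most 5.79 on the other 5 arrays, all below their limits. Fli1, an ETS factor of megakaryocytes that leukemia cells also express, overlapped at 507.8 to 755.7 against 474.6 to 529.3.

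**Figure D3:**
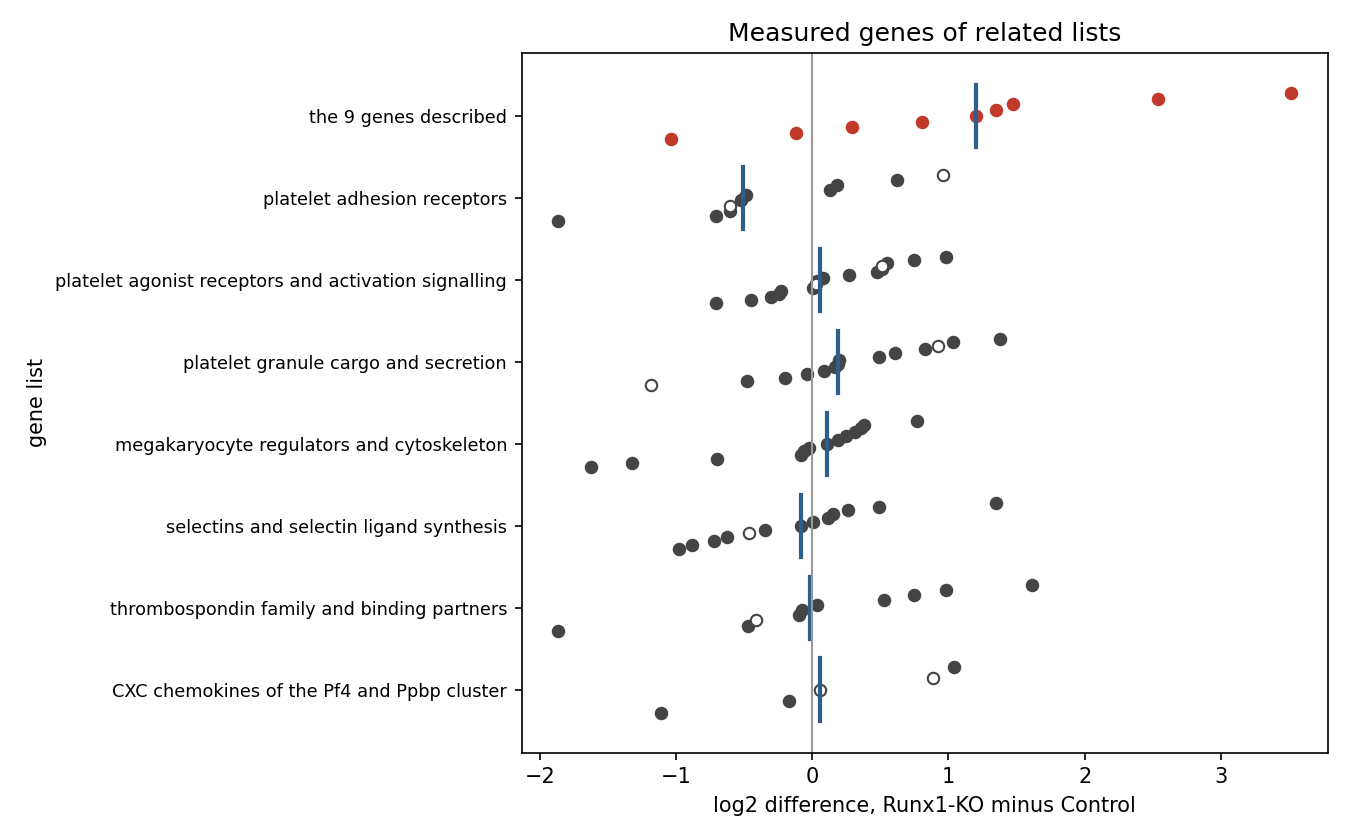
Log2 difference (Runx1-KO minus Control, horizontal axis) of each measured gene of the 9 described (red) and of 7 related lists (grey), open where a gene lay below the limit on all arrays, with the list median as a blue bar. The medians of the related lists lie between -0.51 and 0.19, and that of the 9 genes at 1.20.

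The 9 genes did not peak on the same array. Runx1-KO 1 was the highest array for 5 of them (Selp, Ppbp, Itga2b, Gp9 and Gp1bb), Runx1-KO 2 for Thbs1, F2r and Pf4, and Control 1 for Selplg. Control 3 was the lowest array for 5 of the 9. Runx1-KO 1 is the array with the high Gapdh ratio. Without it the log2 difference was 4.06 for Thbs1, 2.41 for Selp, 1.40 for F2r, 0.79 for Pf4, 0.83 for Itga2b and -1.23 for Selplg, so in these genes the direction did not rest on that array.

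Megakaryocyte markers other than the 9 genes did not separate the groups as a sum. The summed level of the 8 measured markers was 386.0 to 704.1 in Runx1-KO-labelled arrays and 328.5 to 570.9 in Control, highest in Runx1-KO 1. Most of the sum was Itgb3, whose groups overlapped, so the sum says little about the other markers. Of the 8, 7 were higher and 1 lower, 0 passed, and the median log2 difference was 0.44. The groups did not overlap in 2 upward (Vwf and Rab27b) and 1 downward (Gp6). Over all genes these shares were 9.17% and 11.7%. Gp5 and Gp6 were below the limit on all arrays, Rab27b and Treml1 on all but 1.

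Endothelium also carries Selp and Thbs1. Of 10 endothelial markers, 8 were below the limit on all arrays, Cdh5, Kdr and Tek among them, and the summed level was 69.8 to 97.5 in Runx1-KO-labelled arrays and 81.4 to 128.7 in Control. Markers of mature neutrophils differed in the same direction as Selp, Thbs1 and F2r. All 10 measured were higher, 8 without overlap, 0 passed, and 9 were above the limit on all arrays. The summed level was 16148 to 18863 against 8878 to 13068. Most of that sum was S100a8 and S100a9, which were 1.41-fold and 1.44-fold higher without overlap. Over all genes, the groups did not overlap upward in 9.17% and downward in 11.7%. Markers of monocytes and macrophages differed in the direction of Selplg and opposite to Thbs1. All 9 measured were lower, 6 without overlap, 0 passed, and the summed level was 3147 to 3759 against 5303 to 8051, with C1qa below the limit on all arrays. T and NK cell markers were lower in 6 of 7, 5 without overlap, and 0 passed. These 6 lay below the limit on all Runx1-KO-labelled arrays, and Ncr1 on all arrays. Nkg7, the other marker, was above the limit on all 3 Runx1-KO-labelled arrays. It was higher without overlap, at 35.7, 57.6 and 58.3 against 19.1, 18.6 and 4.11. The sums of the T and NK markers were 79.9 to 92.8 against 93.5 to 166.4, apart by a narrow margin. They include Nkg7, which differed in the opposite direction to the other 6 and so narrows that margin. The sums overlapped for B cell markers (138.1 to 263.5 against 158.5 to 202.1) and for basophil and mast cell markers (112.2 to 167.0 against 125.8 to 173.2). The part of these cell types in the results was not tested.

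**Figure D4:**
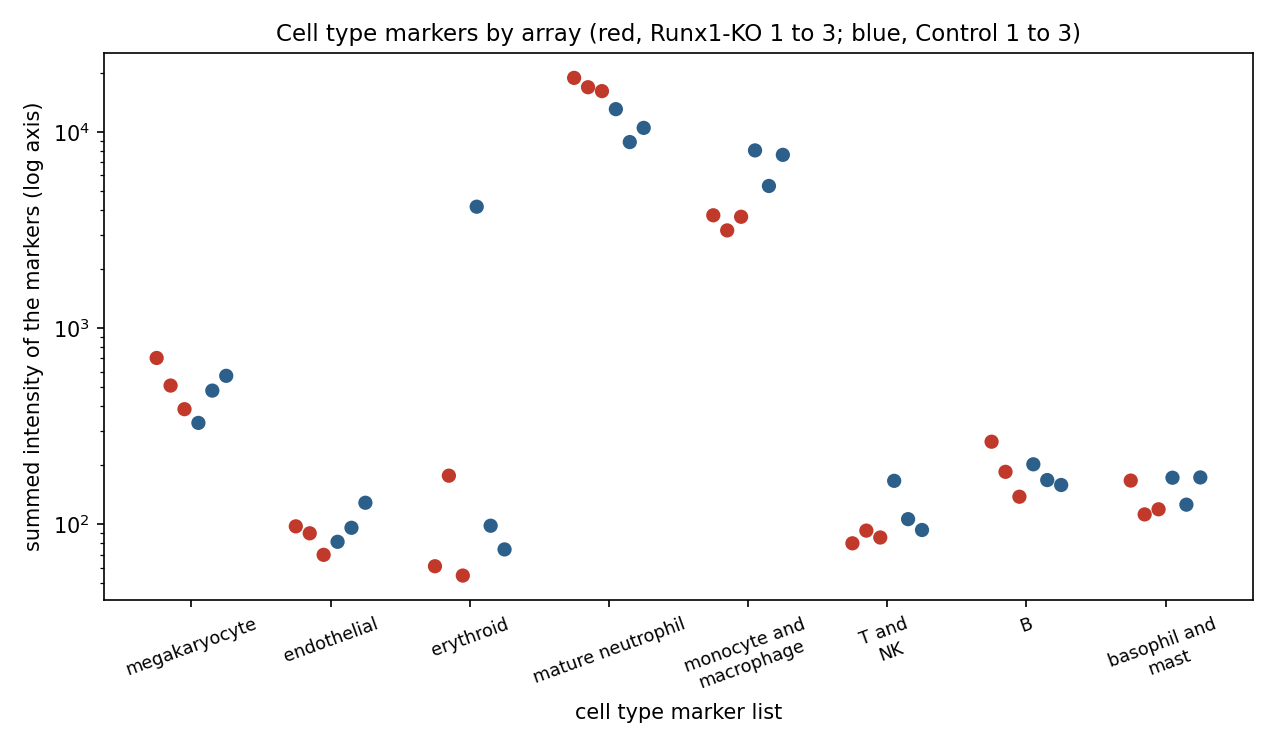
Summed intensity (vertical log axis) of the measured markers of 8 cell types (horizontal axis) on each array, red for Runx1-KO 1 to 3 and blue for Control 1 to 3, from left to right. Neutrophil sums are higher and monocyte sums lower on all Runx1-KO-labelled arrays. The T and NK sums, which include Nkg7, are lower there by a narrow margin. Megakaryocyte sums, which are mostly Itgb3, and endothelial sums overlap, and erythroid signal stands out in Control 1.

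Genes with the most similar profile were sought for 4 of the genes, as the smallest root mean square difference between log2 profiles centred on their mean over the 6 arrays, among 11424 genes above the limit on at least 3 arrays. Nearest to F2r was Abtb2, at 0.14 log2 units, followed by Samd9l and Pou4f1 at 0.25 and 0.26. For Pf4 these were Arhgef3, Smim3 and Lcn9, at 0.17, 0.17 and 0.18. The closest to Thbs1 were Nedd4, Bahcc1 and Prr15, at 0.62, 0.64 and 0.64. The distance is not scaled and tends to be larger for genes that vary more between arrays, so it does not rank closeness across the 4 genes. Selp had a transcript named 8430419K02Rik at 0.30, then Plagl1 and Cacna2d2 at 0.46 and 0.48. None of the 12 was among the 9 genes. With 6 arrays and this many candidates, close profiles are found for many genes, and likeness is a description.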

How the data were processed

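RNA of 6 mouse leukemias, 3 per genotype, had been prepared with a spin-column kit and labelled with biotin as fragmented cDNA, per the labels' protocols. The authors deposited 1 linear intensity value per probe set and array, already on a common scale. Neither the summary of probes, the background correction nor the normalization is stated in the labels, and scan dates were not given in the sources used here. Of 45101 probe sets, 34958 had 1 symbol, and the brightest of each gene (highest mean log2 level) gave 18194 genes.

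Under R 4.3.3, a linear model of log2 intensity on genotype alone was fitted to every gene with limma 3.58.1, without a filter, using moderated statistics (eBayes) and two-sided p-values adjusted by Benjamini-Hochberg over all genes at 0.05. The code was tested on simulated data. The limit of an array was its brightest value among 27 bacterial control probe sets (dap, lys, phe, thr and trp). Folds called at least a value raise dim arrays of the lower group to their limits. The genes, lists and rules were chosen with earlier results of these data known. Named were all 9 genes, the 2 members of lowest p in each related list, and members above the limit in both groups without overlap. Other genes named were chosen after their values were seen. Alternatives were 2 normalizations, an offset of 16, a filter on dim genes, 2 uses of probe sets, a variance trend, array weights, the replicate number as a block, and leaving out arrays. The number of arrays limits the precision.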

Additional observations from a re-analysis of the deposited data

How the results depend on the processing

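Of the 9 genes, 0 passed over all genes (limma) under any of the 16 alternatives, with 4 to 6 at an unadjusted p under 0.05. Direction was kept in all alternatives for 8 of the 9. Gp1bb reversed, with log2 differences of 0.072 with an offset of 16, 0.28 as the mean of its probe sets, and -1.05 to 0.59 when single arrays were left out, and it could not be tested after the filter on dim genes. Its signal on the probe sets used lies near background, and the cause was not tested. Replicate numbers did not pair the arrays, with correlations of deviations of -0.01, -0.09 and 0.04 for numbers 1, 2 and 3 and 0 of 3 arrays closest to their own number. With the replicate number as a block, adjusted p ran from 0.337 to 0.940 over the 9 genes. Over all genes, 6 passed as higher and 10 as lower. These counts were 25 and 39 with the offset, 14 and 20 after the filter, 39 and 65 with a variance trend and robust fitting, 27 and 44 with array weights, and 1 and 1 to 2 with single arrays left out. Both counts were 0 with the block and without both arrays numbered 1, where limma gave 1929 and 2318 genes at an unadjusted p under 0.05. Counts of higher genes moved in 4 lists: adhesion receptors from 4 to 2 without Runx1-KO 1, agonist receptors and signalling from 11 to 7 with array weights or without Runx1-KO 2, selectin genes from 6 to 3 and 2 under those same settings, and the chemokine cluster from 3 of 5 to 1 of 2, since the filter left 2 of its genes.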
